A study of Rattus norvegicus with 9 samples.

Results

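The miR-23, miR-24 and miR-27 families of serum small RNA were examined in rats with a loaded right ventricle. The members were the rows of the miRNA table named rno-miR-23a, 23b, 24, 27a or 27b with any arm or locus suffix, which gave 10 of the 276 mature miRNAs. They were chosen by the mean share of the miRNA reads that rno-miR-24-3p (5.17%, place 4 of all) and rno-miR-23a-3p (4.75%, place 5) took over the 9 libraries, and because miR-23a-3p serves as the reference of a haemolysis ratio, so their levels are given as a description. The PAB group was 6 male Sprague-Dawley rats, labelled WT, whose proximal pulmonary artery had been banded, and the sham group was 3 such rats that had a sham operation. All were 4 weeks old at surgery, serum was taken 4 weeks later, and each library is 1 rat. The band loads the right ventricle by a fixed narrowing and does not act through disease of the lung vessels.

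The 3 families come from 2 short gene clusters. In each cluster, one primary transcript is cut into a miR-23, a miR-27 and a miR-24 hairpin, and Dicer then releases a 5p and a 3p arm from each hairpin, of which usually one is loaded into Argonaute and kept. In mammals these miRNAs are known from endothelial cells, muscle and blood cells, where miR-27 represses genes of fat cell formation and lipid handling, miR-24 acts in the cell cycle and in cardiac and vascular survival, and miR-23 acts in vessel growth and glutamine use. Outside cells, miR-23a is often taken as a serum miRNA that red cells add little to, and is set against miR-451, which red cells hold in plenty.

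The mature sequences, from RefSeq (build GRCr8), are shown because the seed (bases 2 to 8, in capitals) decides which families share targets and because single bases separate the a and b members. RefSeq gave a sequence for 9 of the 10 members.
miR-23a-3p: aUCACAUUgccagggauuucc
miR-23b-3p: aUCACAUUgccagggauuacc
miR-27a-3p: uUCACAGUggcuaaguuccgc
miR-27b-3p: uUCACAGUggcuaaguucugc
miR-24-3p: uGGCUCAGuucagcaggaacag
miR-24-1-5p: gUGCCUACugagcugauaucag
miR-24-2-5p: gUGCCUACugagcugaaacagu
miR-27a-5p: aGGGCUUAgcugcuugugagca
Counting from 1 at the 5′ end, miR-23a-3p and miR-23b-3p differ by the single substitution U19A, and miR-27a-3p and miR-27b-3p by C19U. Both lie outside the seed, so each pair shares its seed, and reads of an a member and a b member can be told apart by 1 base of 21 only. The seeds of miR-23a-3p and miR-27a-3p differ by 1 base, U7G. The seed of miR-24-3p is of its own kind.

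miR-24-3p is cut from 2 hairpins, which are shown with that arm in capitals because its reads cannot be placed in either cluster. Mir24-1 lies at chr17:1818669-1818736 and Mir24-2 at chr19:40859455-40859562 of GRCr8, both on the minus strand.
Mir24-1: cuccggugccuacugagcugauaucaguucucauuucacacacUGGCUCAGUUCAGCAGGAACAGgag
Mir24-2: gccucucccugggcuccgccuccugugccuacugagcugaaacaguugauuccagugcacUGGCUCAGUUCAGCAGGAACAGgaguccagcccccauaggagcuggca
Their 3p arms are identical, while their 5p arms share the first 16 bases and then differ. The hairpins of miR-23a, miR-27a and miR-24-2 lie within 389 bases of chromosome 19, and those of miR-23b, miR-27b and miR-24-1 within 814 bases of chromosome 17, inside the span of the protein-coding gene Aopep. These positions are those of GRCr8 and not of the build to which the authors aligned.

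The 10 members held 56135 reads, which is 12.8% of all miRNA reads. The 5 members of the 3p arm held 55658 reads and the 5 of the 5p arm held 477. miRNA reads per library were 19477 to 64455 in the PAB group and 56231 to 65313 in the sham group. The number of miRNAs detected was 81 to 131 in the PAB group, against 173, 217 and 129 in sham libraries 1 to 3. Sham libraries 1 and 2 thus stood apart, and the log2FC of the members and the differences of their ratios are given with and without them. The authors' RPM divides reads by a library total of about 12630000 to 19250000. miRNA reads were a small and varying part of it, from 19477 beside about 19250000 in PAB library 1 to 65313 beside about 12630000 in sham library 1. RPM values therefore also move with this part, which shares of miRNA reads do not. Wilson 95% intervals of percentages cover the counting error of reads only. The paper's methods name no molecular identifiers, so PCR copies could not be told apart and the intervals may be too narrow. No 2 libraries had the same values.

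miR-23a-3p, the 3p arm of the miR-23a hairpin on chromosome 19, was present in the serum of every rat. Its reads were 1707, 3384, 1881, 1862, 858 and 577 in PAB libraries 1 to 6, against 4089, 2442 and 2576 in sham libraries 1 to 3. In RPM this was 88.7, 216, 122, 122, 44.8 and 45.0 in the PAB group, against 324, 146 and 152 in the sham group. PAB libraries 5 and 6 were the lowest and sham library 1 the highest, and the groups overlapped, since PAB library 2 lay above sham libraries 2 and 3. The mean level was 106 ± 63.9 RPM over the PAB rats (SD, n = 6) and 207 ± 101 RPM over the sham rats (SD, n = 3). As a share of miRNA reads it was 4.70% ± 2.90 over the PAB rats (SD, n = 6) and 4.86% ± 1.28 over the sham rats (SD, n = 3). The log2FC (PAB against sham) from edgeR's quasi-likelihood test with TMM normalization was 0.40 (standard error 1.03, adjusted p = 0.931), and with the totals implied by RPM it was −0.96 (adjusted p = 0.599 from edgeR), so its sign depends on the scaling. Without sham libraries 1 and 2 it was −0.43 (adjusted p = 0.949 from edgeR), a fit in which the lone sham library is assumed to vary like the others.

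miR-24-3p, the arm that both clusters share, was plentiful in 8 of the 9 libraries and nearly missing in 1. It had 5, 3520, 551, 2414, 3426 and 1745 reads in PAB libraries 1 to 6, against 9349, 4523 and 773 reads in sham libraries 1 to 3. The 5 reads of PAB library 1 were 0.0257% of its miRNA reads (Wilson 95% interval 0.0110% to 0.0601%), against 2.08% to 5.85% in the other PAB libraries. The interval of PAB library 3, the next lowest in the PAB group, was 1.91% to 2.26%, far above that of PAB library 1. In RPM, miR-24-3p averaged 122 ± 86.7 over the PAB rats (SD, n = 6) and 352 ± 355 over the sham rats (SD, n = 3), and the groups overlapped. Its log2FC was 0.07 (standard error 1.17, adjusted p = 0.982 from edgeR) with TMM and −1.53 (adjusted p = 0.36 from edgeR) with the totals implied by RPM. Without sham libraries 1 and 2, which held most of its sham reads, it was 1.04 (adjusted p = 0.949 from edgeR) with TMM and 1.42 (adjusted p = 0.988 from edgeR) with the totals implied by RPM.

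**Figure D1:**
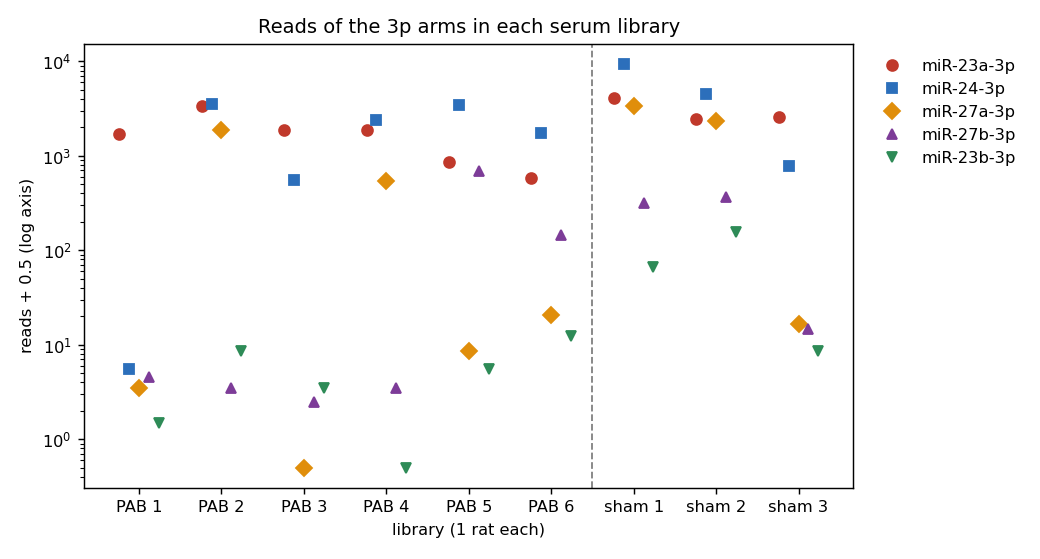
Reads (+ 0.5, log axis) of the 3p arms of miR-23a, miR-24, miR-27a, miR-27b and miR-23b in each of the 6 PAB and 3 sham serum libraries, 1 point per library. miR-23a-3p stays between 577 and 4089 reads, while each of the other members drops to 20 reads or fewer in at least 1 library, and miR-24-3p reaches 9349, miR-27a-3p 3367, miR-27b-3p 686 and miR-23b-3p 154.

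miR-27a-3p, which is cut from the same transcript as miR-23a-3p, was either high or close to nothing. It had 3, 1858, 0, 543, 8 and 20 reads in PAB libraries 1 to 6, against 3367, 2364 and 16 reads in sham libraries 1 to 3. PAB libraries 2 and 4 and sham libraries 1 and 2 were high, and the 5 other libraries had at most 20 reads. The 0 reads of PAB library 3 allow a share of up to 0.0113% of its miRNA reads, while miR-23a-3p took 7.09% of the same library. The mean level was 26.1 ± 47.5 RPM over the PAB rats (SD, n = 6) and 136 ± 133 RPM over the sham rats (SD, n = 3). Its log2FC was −0.75 (standard error 2.03, adjusted p = 0.931 from edgeR), and without sham libraries 1 and 2 it was 4.26 (adjusted p = 0.949 from edgeR).

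miR-27b-3p, the chromosome 17 member with the same seed as miR-27a-3p, was high in other libraries. It had 4, 3, 2, 3, 686 and 145 reads in PAB libraries 1 to 6, against 318, 365 and 14 reads in sham libraries 1 to 3. PAB libraries 5 and 6 were high in miR-27b-3p and low in miR-27a-3p, PAB libraries 2 and 4 were high in miR-27a-3p and low in miR-27b-3p, and sham libraries 1 and 2 were high in both. The mean level was 7.97 ± 14.3 RPM over the PAB rats (SD, n = 6) and 15.9 ± 13.2 RPM over the sham rats (SD, n = 3). Its log2FC was 0.83 (standard error 2.45, adjusted p = 0.931 from edgeR), while the totals implied by RPM gave −1.0 (adjusted p = 0.83 from edgeR). It was −1.01 (adjusted p = 0.934 from edgeR) without PAB library 5 and 3.03 (adjusted p = 0.949 from edgeR) without sham libraries 1 and 2, so both its sign and its size rest on a few libraries.

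Of the reads of both miR-27 members, miR-27b-3p took 98.8% in PAB library 5 (Wilson 95% interval 97.7% to 99.4%) and 87.9% in PAB library 6 (82.0% to 92.0%). It took 0.161% in PAB library 2 (0.0548% to 0.473%) and 0.549% in PAB library 4 (0.187% to 1.6%). In sham libraries 1 and 2 it took 8.63% (7.77% to 9.58%) and 13.4% (12.2% to 14.7%). Within the PAB group, the intervals of libraries 5 and 6 thus lay far above those of libraries 2 and 4. These intervals cover read counting only. With 1 library per rat, a difference between rats and one between libraries cannot be told apart. PAB libraries 1 and 3 had only 7 and 2 miR-27 reads, and sham library 3 had 30, so their shares are loosely set.

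miR-23b-3p, the chromosome 17 partner of miR-23a-3p, was low in the PAB group and in sham library 3. It had 1, 8, 3, 0, 5 and 12 reads in PAB libraries 1 to 6, against 66, 154 and 8 reads in sham libraries 1 to 3. Sham libraries 1 and 2 were above all others, and sham library 3 was at the level of PAB libraries 2 and 6. The mean level was 0.326 ± 0.349 RPM over the PAB rats (SD, n = 6) and 4.97 ± 4.37 RPM over the sham rats (SD, n = 3). Its log2FC was −2.18 (standard error 1.46, adjusted p = 0.441 from edgeR), and without sham libraries 1 and 2 it was −0.75 (adjusted p = 0.949 from edgeR). Of all miR-23 reads of the 3p arm, miR-23b-3p took 0% to 2.04% in the PAB group, where the 0 reads of PAB library 4 allow up to 0.00601% of its miRNA reads, and 0.310% to 5.93% in the sham group.

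The 5p arms were rare, with 2 reads in the PAB group and 475 in the sham group. miR-24-2-5p, the 5p arm of the chromosome 19 hairpin, had 1 read, in PAB library 6, against 449 reads in sham library 2 and 0 in the other sham libraries. Sham library 1, one of those with 0, held the most miR-24-3p. miR-27a-5p had 1 read in PAB library 1 and 0 in the other 5 PAB libraries, against 2, 18 and 1 reads in sham libraries 1 to 3. miR-23a-5p had 0 reads in the PAB group and 1 and 2 reads in sham libraries 1 and 2, miR-23b-5p had 1 read, in sham library 2, and miR-24-1-5p had 1 read, in sham library 1. Sham libraries 1 and 2 also held more miRNAs of all kinds, and the part of this in the 5p reads was not tested.

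Among the members, 6 of 10 were above 0 in at least 3 libraries and were tested, and 0 of them were called in edgeR's quasi-likelihood test at an adjusted p ≤ 0.05 and |log2FC| ≥ 1. Over all 162 miRNAs tested, the same rule called 2, or 1.23%. Libraries of a group varied widely in this fit (common dispersion 3.03), so the lack of a call does not show equal levels. Of the 6, 3 had log2FC above 0 (miR-23a-3p, miR-24-3p and miR-27b-3p) and 3 had log2FC below 0, with a median of −0.34 against −0.15 over all miRNAs tested. Adjusted p were 0.211 to 0.982, and 1 member was at an unadjusted p under 0.05, against 24 of all 162 or 14.8% (7 with log2FC above 0 and 17 below). The other 4 members, all 5p arms, were in too few libraries to be tested. DESeq2 and limma-voom on the same miRNAs also called 0 members, where DESeq2 called 13 of the 107 miRNAs to which it gave an adjusted p (12.1%) and limma-voom 0 of 162.

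The member with the smallest p was miR-27a-5p, whose log2FC was −2.96 with a standard error of 1.26 and an adjusted p of 0.211 from edgeR. With the totals implied by RPM it was called lower in the PAB group, with a log2FC of −4.66 (adjusted p = 0.0242 from edgeR). Under that scaling 23 of the 162 miRNAs (14.2%) were called lower, and the median log2FC of all was −1.54. It was also the only tested member whose groups did not overlap in RPM, by 0.052 in PAB library 1 and 0.059 in sham library 3, which are 1 read each, while 9.88% of the 162 miRNAs did not overlap. It passed the filter on low values through the sham libraries, where it was the higher. All of these values rest on 22 reads, 18 of them in sham library 2, without which the log2FC was −1.48 (adjusted p = 0.876 from edgeR). Without both sham libraries 1 and 2 it was in too few libraries to be tested.

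**Figure D2:**
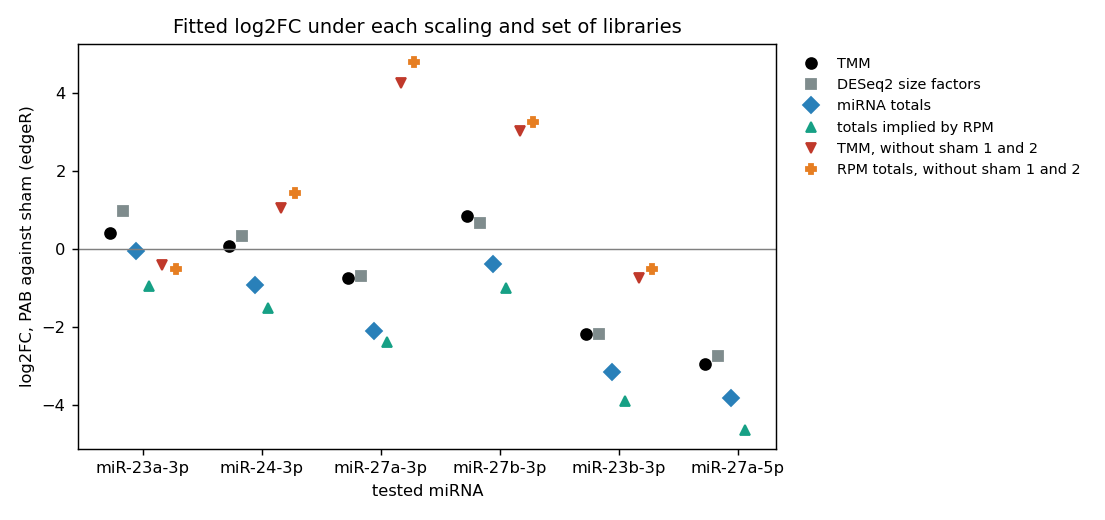
Fitted log2FC (PAB against sham, edgeR) of the 6 tested members under TMM, DESeq2 size factors, miRNA totals and totals implied by RPM, and without sham libraries 1 and 2 under TMM and RPM totals. miR-23b-3p and miR-27a-5p stay below 0 wherever they were tested, while miR-23a-3p, miR-24-3p, miR-27a-3p and miR-27b-3p change sign between these settings, and without sham libraries 1 and 2 miR-27a-3p has 4.26 and 4.78.

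Summed over the 10 members, the clusters took 8.24% to 13.6% of the miRNA reads in the PAB group, where miR-23a-3p alone took 1.42% to 8.76%. By library the sum made up 8.84%, 13.6%, 9.19%, 9.66%, 8.24% and 8.38% of the miRNA reads in PAB libraries 1 to 6, against 26.3%, 15.8% and 6.03% in sham libraries 1 to 3. The PAB libraries lay within the range of the sham libraries. What made up this share differed from library to library. miR-23a-3p took 99.2% of the cluster reads in PAB library 1 and 77.2% in PAB library 3, but 17.2% in PAB library 5 and 23.1% in PAB library 6. miR-24-3p took 68.7% and 69.8% in PAB libraries 5 and 6, 54.4% in sham library 1 and 43.8% in sham library 2. PAB library 3 had 77.2% miR-23a-3p and 22.6% miR-24-3p, close to sham library 3 with 76.0% and 22.8%. miR-27a-3p took 21.2% and 11.3% in PAB libraries 2 and 4, 19.6% and 22.9% in sham libraries 1 and 2, and at most 0.8% elsewhere.

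**Figure D3:**
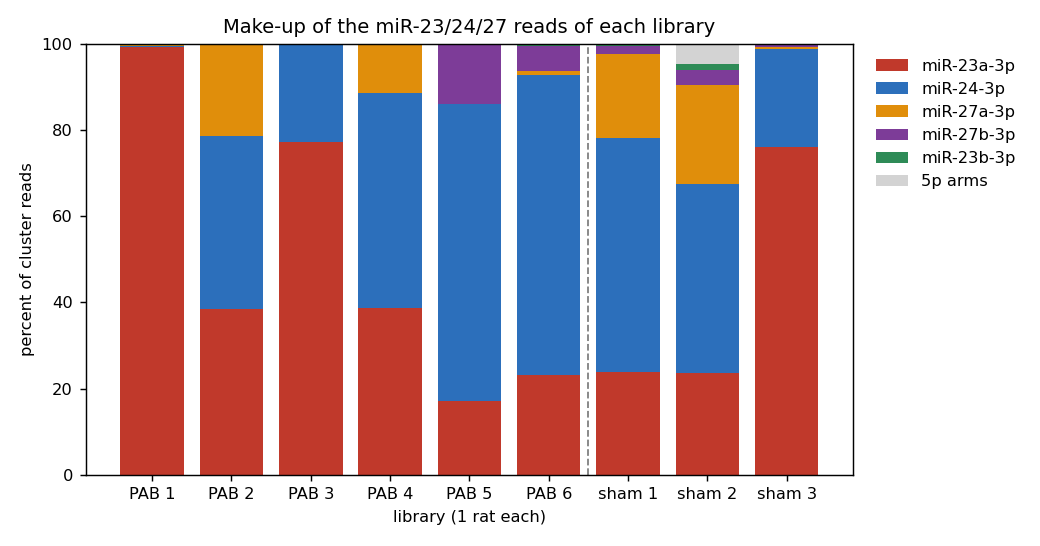
Percent of the miR-23/24/27 reads of each library that each 3p arm and all 5p arms took, as stacked bars for the 6 PAB and 3 sham libraries. miR-23a-3p makes up 99.2% of PAB library 1 and 17.2% of PAB library 5, and PAB library 3 resembles sham library 3, with 77.2% and 76.0% miR-23a-3p.

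Pooled over the members, the values were split into high and low with little between. Of the 45 values of the 5 members of the 3p arm in 9 libraries, 18 were at 20 reads or fewer, 26 were at 100 reads or more (the lowest of these at 145), and 1 was in between, miR-23b-3p with 66 reads in sham library 1. These limits were chosen after the values were seen.

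Ratios of members within a library need no scaling between libraries. The log2 ratio of miR-23a-3p to miR-24-3p, whose reads can come from either cluster, was 8.28, −0.06, 1.77, −0.37, −2.0 and −1.6 in PAB libraries 1 to 6, against −1.19, −0.89 and 1.74 in sham libraries 1 to 3. PAB library 1 stood far above the rest. The mean was 1.0 ± 3.8 over the PAB rats (SD, n = 6) and −0.12 ± 1.61 over the sham rats (SD, n = 3), which differed by 1.12 (p = 0.786 by exact two-sided permutation over 84 splits, or 0.786 after adjustment over the 3 ratio tests). Without PAB library 1 the difference was −0.34 (exact permutation test, p = 0.857), and without sham libraries 1 and 2 it was −0.73, a value with no test.

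The log2 ratio of miR-27a-3p to miR-23a-3p, hairpins next to each other on chromosome 19, was −8.93, −0.86, −11.88, −1.78, −6.66 and −4.82 in PAB libraries 1 to 6, against −0.28, −0.05 and −7.29 in sham libraries 1 to 3. The members were thus within 1 of each other on the log2 scale in PAB library 2 and sham libraries 1 and 2, while PAB libraries 1 and 3 had 1707 and 1881 reads of miR-23a-3p beside 3 and 0 of miR-27a-3p. It was not tested, since miR-27a-3p had 0 reads in 1 library, and the same holds for the ratios with miR-23b-3p. Over the 8 libraries with reads of both, the ratio ranged over 8.88 on the log2 scale. Over all 9 libraries that of miR-23a-3p to miR-24-3p ranged over 10.28, and over the 8 libraries with reads of both, that of miR-27b-3p to miR-23b-3p, the chromosome 17 pair, ranged over 8.24. This last range is loosely set, since miR-23b-3p had at most 12 reads in any PAB library.

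miR-23a-3p had one of the smallest spreads of level between libraries. Of the 41 miRNAs with reads in every library, only miR-26a-5p (0.86) and let-7i-5p (0.91) had a smaller SD of log2 RPM over the 9 libraries than miR-23a-3p (0.95). miR-24-3p was at place 27 with an SD of 3.33 and miR-27b-3p at place 32 with 3.52. Within the PAB group miR-23a-3p was at place 5 of the 41 (SD 0.89, n = 6) and within the sham group at place 8 (SD 0.65, n = 3). The other 2 members of the 3p arm had 0 reads in 1 library each and could not be placed.

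**Figure D4:**
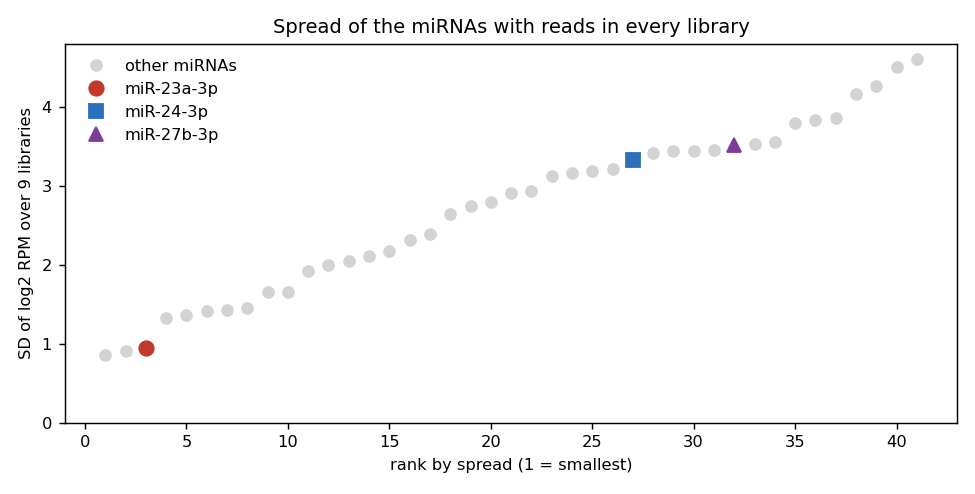
SD of log2 RPM over the 9 libraries for the 41 miRNAs with reads in each of them, ordered by size, with the members marked. miR-23a-3p is at place 3 with 0.95, while miR-24-3p and miR-27b-3p are at places 27 and 32 with 3.33 and 3.52.

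By the SD of the log2 ratio of reads over the 9 libraries, the 38 other miRNAs with reads in every library were ordered by how closely they followed a member. miR-92a-3p followed miR-23a-3p most closely, with an SD of 0.66 and a log2 ratio of −2.92 to −1.05. It was followed by let-7i-5p (0.87) and the platelet-rich miR-191a-5p (1.14). miR-92a-3p, of the miR-17-92 cluster, is also held by red blood cells. miR-24-3p was followed most closely by let-7d-3p, with an SD of 1.37 and a log2 ratio of −1.87 to 1.45, then by miR-181a-5p (2.04) and a miRNA predicted by the authors (2.33). Of the SD of 3.16 between miR-23a-3p and miR-24-3p themselves, PAB library 1 gave the most extreme value. All of these miRNAs share the same 9 libraries, and their depths, so the SDs are a description.

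The use of these members as a haemolysis reference was examined with miR-451-5p, which had 1214, 1474, 435, 565, 3 and 233 reads in PAB libraries 1 to 6, against 14, 31 and 852 reads in sham libraries 1 to 3. Set against miR-23a-3p, miR-451-5p had log2 ratios of −0.49, −1.2, −2.11, −1.72, −7.94 and −1.31 in PAB libraries 1 to 6, against −8.14, −6.28 and −1.60 in sham libraries 1 to 3. PAB library 5 and sham libraries 1 and 2 were low, and the other 6 libraries lay within −2.11 to −0.49. The mean was −2.46 ± 2.74 over the PAB rats (SD, n = 6) and −5.34 ± 3.37 over the sham rats (SD, n = 3), which differed by 2.88 (p = 0.262 by exact two-sided permutation over 84 splits, or 0.572 after adjustment over the 3 ratio tests). It was 1.48 without sham library 1 and 4.75 without sham library 3 (exact permutation tests, p = 0.714 and 0.143, where 28 splits allow no two-sided p below 0.0714). Without sham libraries 1 and 2 the difference was −0.87, a value with no test, so its direction rests on those libraries.

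With miR-24-3p as the reference, the log2 ratio of miR-451-5p was 7.79, −1.26, −0.34, −2.09, −9.94 and −2.9 in PAB libraries 1 to 6, against −9.33, −7.17 and 0.14 in sham libraries 1 to 3. PAB library 1 was then the highest by far, while by miR-23a-3p it was also the highest but close to 5 other libraries. The means were −1.46 ± 5.68 over the PAB rats (SD, n = 6) and −5.45 ± 4.96 over the sham rats (SD, n = 3), which differed by 4.0 (p = 0.381 by exact two-sided permutation over 84 splits, or 0.572 after adjustment over the 3 ratio tests). Without sham libraries 1 and 2 the difference was −1.6, again with no test. The SD over all 9 libraries was 5.5 with miR-24-3p as the reference and 3.10 with miR-23a-3p. miR-486, another miRNA that red cells hold in plenty, had 841, 1, 78, 356, 823 and 5 reads in PAB libraries 1 to 6, against 13, 21 and 4 reads in sham libraries 1 to 3. It was high in PAB library 5, where miR-451-5p had 3 reads, so a ratio of this kind also depends on which red cell miRNA is taken. The paper describes miR-486 as enriched in muscle, the heart included, so its reads need not come from red cells. Their source was not tested.

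**Figure D5:**
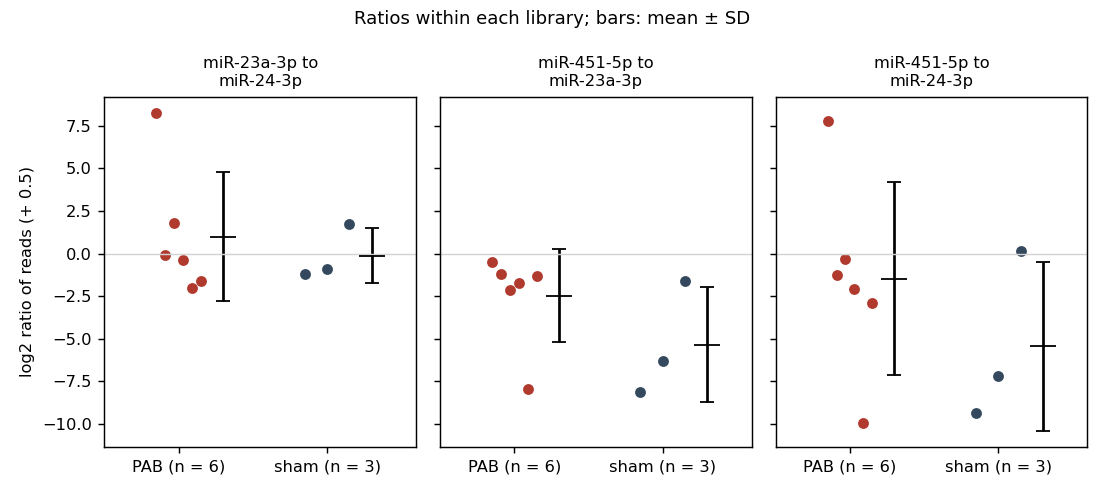
Log2 ratios of reads (+ 0.5) within each library, for miR-23a-3p/miR-24-3p, miR-451-5p/miR-23a-3p and miR-451-5p/miR-24-3p, with 1 point per library and the mean ± SD of the PAB (n = 6) and sham (n = 3) groups. The groups overlap in each ratio, and the difference of the means is 1.12, 2.88 and 4.0.

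Marker miRNAs of the cells that could have given the members to serum were summed for comparison. The 7 red blood cell miRNAs took 3.66% to 13.5% of the miRNA reads in the PAB group and 1.85% to 3.92% in the sham group. The 7 miRNAs of the platelet list took 10.6% to 31.9% in the PAB group and 19.6% to 52.6% in the sham group. The 6 endothelial miRNAs took 0.0421% to 3.54% in the PAB group and 1.12% to 3.40% in the sham group. miR-191a-5p had the highest TMM-scaled level of the tested platelet miRNAs in every library but PAB library 6, where miR-150-5p was higher. miR-126a-3p and miR-126a-5p were counted in both the platelet and the endothelial list. The platelet list also holds miR-150-5p, miR-223-3p and miR-146a-5p, which are known from white blood cells too. These sums thus do not keep the cell types apart, and that of the platelet list is not a share from platelets alone. edgeR called 0 of 7, 0 of 6 and 0 of 5 tested members of these lists, with median log2FC of 0.13, 0.43 and −0.70, against −0.15 over all miRNAs tested. At an unadjusted p under 0.05 there were 4, 0 and 1 with edgeR, beside 14.8% of all miRNAs. Those 4 red blood cell miRNAs went both ways. The log2FC was 6.77 for miR-486 but −3.07 for miR-15b-5p, −3.86 for miR-25-3p and −7.34 for miR-185-5p. DESeq2 called 1 of 5, 0 of 4 and 1 of 4 to which it gave an adjusted p, beside 12.1% of all such miRNAs, and limma-voom called 0 of each and of all. The defining marker miR-451-5p had reads in each library. The part of these cells in the levels of miR-23, miR-24 and miR-27 was not tested.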

How the data were processed

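Serum small RNA of 6 rats with PAB and 3 sham-operated rats was sequenced by the authors as single ends of 50 bases. The deposited table holds counts, whole reads per mature miRNA with no normalization, and RPM, in which the authors divided the counts by 1 total per library that is not in the table. The paper's methods name Rnor_6.0, Bowtie 2 and miRBase, but Bowtie2 2.2.9 and GRCh38.p13 stand in the submitters' processing notes. The counting rule is not given in the sources used here.

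The counts of the 162 miRNAs above 0 in at least 3 of 9 libraries were fitted with edgeR 4.0.16 in R 4.3.3 (TMM, quasi-likelihood test, Benjamini-Hochberg over all 162). TMM factors ranged from 0.614 in sham library 3 to 2.17 in sham library 2. Standard errors are |log2FC| divided by the square root of F. The thresholds for a call were |log2FC| ≥ 1 and an adjusted p ≤ 0.05. Ratios are log2 of reads + 0.5 and were tested by exact two-sided permutation tests (scipy 1.17.1), in which p is 2 times the smaller tail. They were tested only where both miRNAs had a read in every library. Intervals are Wilson 95%, and floors are 3 counts per library. Each library is labelled as a separate rat.

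The alternatives were DESeq2 1.42.0, limma-voom (limma 3.58.1), other scalings and filters, the library number as a block, other pseudocounts and leaving out each library. The fits without sham libraries 1 and 2 were chosen after seeing the data. The members, lists and tests were chosen with earlier results of these data known. Named miRNAs are all members, miR-451-5p, miR-486 and the 3 miRNAs that followed miR-23a-3p or miR-24-3p most closely. miR-26a-5p, miR-15b-5p, miR-25-3p, miR-185-5p and miR-150-5p were named after their values were seen. miR-126a-3p and miR-126a-5p were named because the platelet and endothelial lists share them, and miR-223-3p and miR-146a-5p because white blood cells also hold them. Sequences are from RefSeq.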

Additional observations from a re-analysis of the deposited data

Results flagged for a closer look

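Of 9 measures examined over the 6 PAB libraries, 4 had 1 library far from the other 5. Chance alone gives about 1 in 20 for independent values that follow one normal spread, which these do not, since 2 of the 4 rest on the same reads of miR-24-3p and that of miR-27a-5p sets 1 read against 0. The log2 RPM (+ 0.1) of miR-24-3p was −1.47 in PAB library 1 and 5.16 to 7.81 in the others. The log2 ratio of miR-23a-3p to miR-24-3p was 8.28 in PAB library 1 and −2.0 to 1.77 in the others, from the same 5 reads of miR-24-3p. The log2 RPM (+ 0.1) of miR-27a-5p was −2.72 in PAB library 1, from 1 read, and −3.32, the value of 0 reads, in the others. The log2 ratio miR-451-5p/miR-23a-3p was −7.94 in PAB library 5 and −2.11 to −0.49 in the others, from 3 reads of miR-451-5p.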

How the results depend on the processing

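Members called were 0 under all alternatives except the totals implied by RPM, where 1 (miR-27a-5p) was called lower. Over all miRNAs, 2 were lower in the main setting, 6 with miRNA totals, 23 with totals implied by RPM, 10 with no filter, 4 with DESeq2 and 0 with DESeq2's size factors, with at least 10 reads in 3 libraries, with limma-voom and, added after the data were seen, without sham libraries 1 and 2 under either scaling, while 0 were higher except 9 with DESeq2 and 1 with no filter. With 1 library left out, 0 to 2 were lower and 0 higher.

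The log2FC of miR-23b-3p and miR-27a-5p stayed below 0 in every setting in which they were tested (−3.91 to −0.53 and −4.93 to −1.27). Those of the other 4 changed sign in 25 of 80 fits, and the cause was not tested. For miR-23a-3p, miR-24-3p and miR-27b-3p they were −0.05, −0.92 and −0.39 with miRNA totals, −0.96, −1.53 and −1.0 with totals implied by RPM, and −0.71, −1.05 and −0.14 with the stricter filter. Limma-voom gave −0.50 for miR-24-3p and −1.87 for miR-27b-3p. Without sham libraries 1 and 2, miR-23a-3p had −0.43 and −0.51 and miR-27a-3p had 4.26 and 4.78 with TMM and with totals implied by RPM. With 1 library left out, miR-24-3p had −0.24 to 0.77 (−0.15 and −0.13 without PAB library 2 or 5, −0.11 and −0.24 without sham library 2 or 3), miR-27a-3p −2.60 to 0.06 (0.06 without sham library 1) and miR-27b-3p −1.01 to 1.20.

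PAB and sham libraries of the same number did not deviate from their group means in a shared way (correlations of deviations −0.15, −0.35 and 0.03). With 3 pairs this cannot exclude a pairing by number. With the replicate block, libraries 1 to 3 of each group gave 0 miRNAs lower, as without it, and log2FC of −5.78 and −0.48 for miR-27a-3p, −1.04 and −0.78 for miR-24-3p and −4.15 and −4.51 for miR-27b-3p with and without the block. With the block, the ratio differences were 3.45, 4.07 and 7.52 (3 pairs allow no p below 0.25). The ratio of miR-23a-3p to miR-24-3p differed by −0.34 to 2.05 with 1 library left out, with a sign change without PAB library 1, and those of miR-451-5p with miR-23a-3p or miR-24-3p as the reference by 1.48 to 4.75 and 2.06 to 6.79. Without sham libraries 1 and 2 all 3 turned round, to −0.73, −0.87 and −1.6, with no test. Depth limits the 5p arms and miR-23b-3p, which rest on few reads.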
